A study of Homo sapiens with 14 samples.

Results

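The TM9SF and GOST-like proteins are multi-pass membrane proteins of the Golgi and endosomes, and their messages were followed here through selective ribosome profiling of the ER membrane protein complex (EMC). The 10 genes were chosen by symbol: the 4 TM9SF genes (TM9SF1 to TM9SF4) and the 6 GOST-like genes GPR107, GPR108, TMEM87A, TMEM87B, WLS and GPR180. All 10 were among the 19440 genes of the deposited tables, and all 10 passed the filter on low counts that left 9458 genes for the tests.

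EMC sits in the membrane of the endoplasmic reticulum (ER), where it inserts membrane segments, and it is best known for tail-anchored proteins and for first segments that carry only a short tail into the lumen. TM9SF and GOST-like proteins are built differently. A long lumenal domain comes before the bundle of membrane segments, and in most of them it follows a signal peptide, which brings the nascent chain to the Sec61 channel. In known structures WLS keeps an uncleaved membrane segment ahead of its lumenal domain. GOST stands for a Golgi-dynamics (GOLD) fold joined to 7 membrane segments. Protein sequences were not used here, so signal peptides and segments are background and were not checked.

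In the RefSeq annotation of GRCh38.p14, the build of the hg38 alignment, TM9SF1 lies at chr14:24189149-24195441, TM9SF2 at chr13:99501472-99564048, TM9SF3 at chr10:96518110-96587012 and TM9SF4 at chr20:32109714-32167256. GPR107 lies at chr9:130053906-130140164, GPR108 at chr19:6729914-6737580, TMEM87A at chr15:42210447-42273584, TMEM87B at chr2:112055269-112119314, WLS at chr1:68098459-68232546 and GPR180 at chr13:94601857-94634661. WLS overlaps the antisense gene GNG12-AS1 and TMEM87A overlaps GANC, and since the strand setting of the counting is not known here, reads of overlapping genes cannot be told apart.

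The cells were Flp-In T-REx 293, a line derived from human embryonic kidney, in which doxycycline at 0.5 to 1.0 ng/mL for 72 h induced a bait with a 3Flag tag. The EMC6 line was an EMC6 knockout expressing 3Flag-EMC6, and the EMC7 and EMC10 lines expressed 3Flag-EMC7 and 3Flag-EMC10 with no knockout named in the labels. Microsomes were treated with nuclease and solubilized, material held by Flag beads (IP) was set against the solubilized microsomes before binding (input), and ribosome footprints were counted per gene. There were 2 IPs and 2 inputs in the EMC6 line, 2 and 2 in the EMC7 line, and 3 and 3 in the EMC10 line. No IP came from cells without a tagged bait, so footprints held through EMC and footprints that stuck to the beads by other means cannot be told apart. The labels do not say whether replicates were separate cultures, so p-values measure only the spread between these libraries, which may be technical.

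Counts on genes ran from 515302 to 2248591 per IP and from 1692490 to 3395114 per input, and the EMC6 line was the shallowest of the 3. The bait message itself took 0.431% to 0.449% of counts in EMC6 IPs, 14.4% to 15.0% in EMC7 IPs and 24.6% to 26.1% in EMC10 IPs. Each bait rose in its own IP, by a log2 change of 7.54 ± 0.25 for EMC6, 5.71 ± 0.28 for EMC7 and 7.31 ± 0.18 for EMC10 (SE). The line's markers VIM and NEFL had 382 to 4312 and 33 to 414 counts per library. PAX2 had 0 to 9 counts, and NEFM was at 0 in 13 of 14 libraries. Of markers of other cell types, ALB and PTPRC were at 0 in every library and HBB, UMOD and GFAP reached at most 3 counts. Levels below are CPM, counts divided by the TMM-scaled library size, log2 fold changes carry the SE of the fit to all 9458 genes, and adjusted p-values come from edgeR's quasi-likelihood test with Benjamini-Hochberg adjustment, with a call at 0.05. No coding lengths were used here, so levels are compared between libraries and never between genes.

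All 10 messages were higher in IP than in input with every bait. With the EMC6 bait 10 of 10 rose, against 17.6% of all tested genes. With the EMC7 bait 10 of 10 rose, against 20.4% of all genes, and with the EMC10 bait 10 of 10, against 19.9%. Over the mean of the 3 lines 10 of 10 rose, against 23.7%. Their median log2 change over that mean was 1.29, where the median of all tested genes was -0.19. In each of the 30 pairings of gene and line the lowest IP lay above the highest input. How many of all tested genes did the same was not counted, so this only describes the 10 genes. The narrowest gaps were 1.31-fold for GPR107, 1.31-fold for GPR108 and 1.34-fold for TMEM87B, all in the EMC6 line.

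The scaling sets where 0 lies. With library size alone, 5 of 10 rose with EMC6 (10.5% of all genes), 7 with EMC7 (10.6%), 3 with EMC10 (8.04%) and 7 over the mean (12.0%). With EMC6 the calls of TM9SF1, TM9SF2, TM9SF3, GPR107 and TMEM87B were lost, and with EMC7 those of TM9SF3, TM9SF4 and GPR180. With EMC10 those of TM9SF1, TM9SF2, TM9SF3, TM9SF4, GPR107, GPR108 and GPR180 were lost. A scaling factor shifts the log2 changes of all genes by nearly the same amount. The distance between the median of the 10 genes and that of all genes therefore hardly can move with it, and is no check of the scaling. Over the mean this distance was 1.47 with TMM, 1.47 with library size alone, 1.48 with scaling on ER luminal messages and 1.47 with DESeq2 size factors.

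**Figure D1:**
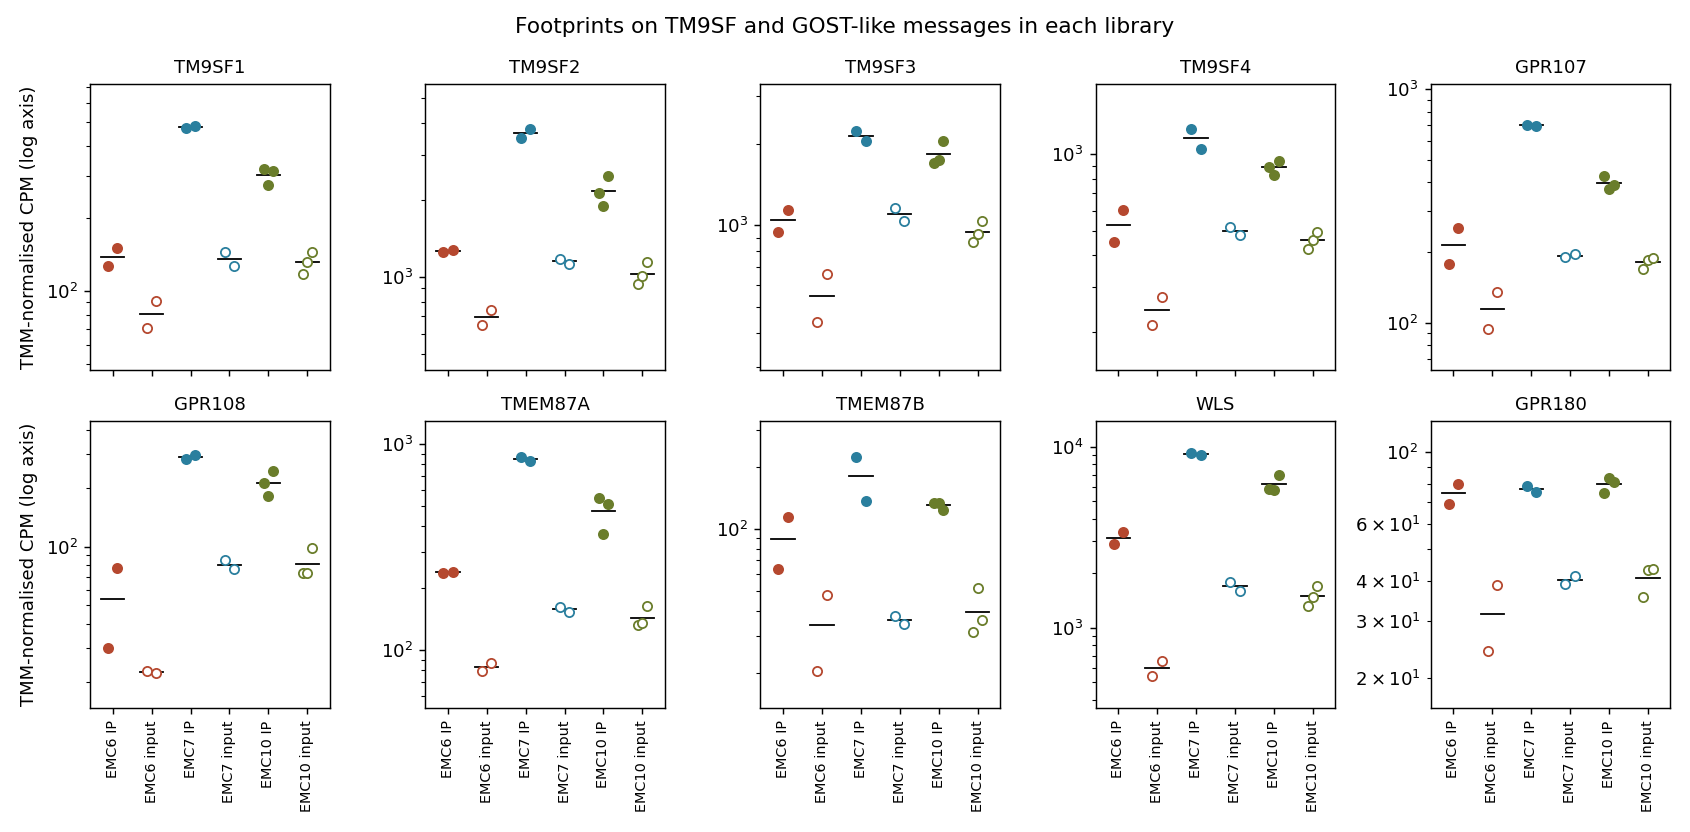
TMM-normalised CPM (log axis) of each of the 10 messages in the 14 libraries, with IPs as filled points, inputs as open points and a bar at each group's mean. In every panel and every line the IPs lie above the inputs, with WLS at 9017 and 9214 CPM in EMC7 IPs against 1591 and 1794 CPM in EMC7 inputs.

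The TM9SF proteins, also called transmembrane 9 superfamily or nonaspanins, are a deeply conserved family. TM9SF2 is needed in human cells for the synthesis of the glycolipid globotriaosylceramide, the receptor of Shiga toxin. It had 1253 and 1270 CPM in EMC6 IPs, against 647 and 739 CPM in EMC6 inputs. With the EMC7 bait it had 3498 and 3788 CPM in IPs, against 1170 and 1125 CPM in inputs. In the EMC10 line it had 2121, 1883 and 2465 CPM in IPs, against 940 and 1005 CPM and 1139 CPM in inputs. Thus the IPs stood above the inputs in every line, with the widest gap in the EMC7 line. The log2 changes of TM9SF2 were 0.86 ± 0.16 with EMC6 (adjusted p = 5.32e-05), 1.67 ± 0.16 with EMC7 (adjusted p = 6.57e-11) and 1.07 ± 0.13 with EMC10 (adjusted p = 1.24e-08).

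TM9SF1, which has been studied in autophagy, had 127 and 151 CPM in EMC6 IPs, against 70.9 and 91.0 CPM in EMC6 inputs. In the EMC7 line it had 474 and 481 CPM in IPs, against 145 and 127 CPM in inputs. With the EMC10 bait it had 319, 275 and 314 CPM in IPs, against 118, 132 and 146 CPM in inputs. Its order of baits was that of TM9SF2. TM9SF1 changed by 0.79 ± 0.20 with EMC6 (adjusted p = 0.00246), 1.81 ± 0.18 with EMC7 (adjusted p = 1.04e-10) and 1.20 ± 0.15 with EMC10 (adjusted p = 1.33e-08). The EMC6 value was lost with library size alone (0.08, adjusted p = 0.710), with scaling on ER luminal messages (0.40, adjusted p = 0.0781), with the EMC6 libraries fitted alone (0.79, adjusted p = 0.0947) and without IP replicate 2 of that line (0.64, adjusted p = 0.113).

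TM9SF3, a Golgi member of the family, had 948 and 1136 CPM in EMC6 IPs, against 438 and 662 CPM in EMC6 inputs. The EMC7 line gave 2216 and 2044 CPM in IPs, against 1157 and 1036 CPM in inputs. The EMC10 line gave 1691, 1739 and 2039 CPM in IPs, against 864, 926 and 1034 CPM in inputs. The ratio of IP to input was nearly level over the baits. The log2 changes of TM9SF3 were 0.92 ± 0.18, 0.96 ± 0.17 and 0.95 ± 0.14 with EMC6, EMC7 and EMC10 (adjusted p = 8.07e-05, 2.36e-05 and 8.10e-07). Over the mean of the lines TM9SF3 stood at 0.95 ± 0.09, the lowest of the 10 genes, and it was level with input under library size alone (-0.0027, adjusted p = 0.975).

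TM9SF4, studied in cell adhesion and phagocytosis, had 452 and 601 CPM in EMC6 IPs, against 213 and 274 CPM in EMC6 inputs. Its EMC7 values were 1255 and 1044 CPM in IPs, against 515 and 480 CPM in inputs. Its EMC10 values were 888, 828 and 938 CPM in IPs, against 423, 458 and 495 CPM in inputs. Like TM9SF3 it had IPs above inputs in every line, with no overlap. The log2 changes of TM9SF4 were 1.12 ± 0.18, 1.21 ± 0.17 and 0.95 ± 0.14 (adjusted p = 3.80e-06, 3.05e-07 and 7.07e-07).

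Among the GOST-like genes WLS had the largest change. WLS, also named Wntless or Evi, carries lipid-modified Wnt ligands from the ER to the cell surface. It had 2892 and 3378 CPM in EMC6 IPs, against 542 and 655 CPM in EMC6 inputs. EMC7 libraries held 9214 and 9017 CPM in IPs, against 1794 and 1591 CPM in inputs. EMC10 libraries held 5853, 5792 and 6930 CPM in IPs, against 1324, 1469 and 1690 CPM in inputs. Every IP was far above every input of its line. WLS rose by 2.39 ± 0.17 with EMC6 (adjusted p = 1.64e-14), 2.43 ± 0.16 with EMC7 (adjusted p = 1.23e-14) and 2.05 ± 0.13 with EMC10 (adjusted p = 1.46e-15). Over the mean of the 3 lines its log2 change of 2.29 ± 0.09 lay above that of 95.7% of tested genes.

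TMEM87A and TMEM87B are paralogous Golgi proteins, and TMEM87A, also named Elkin1, has been studied in the sensing of mechanical force. TMEM87A had 237 and 241 CPM in EMC6 IPs, against 78.8 and 86.6 CPM in EMC6 inputs. In the EMC7 line it had 864 and 832 CPM in IPs, against 163 and 153 CPM in inputs. With the EMC10 bait it had 548, 367 and 512 CPM in IPs, against 133, 135 and 163 CPM in inputs. Its change was largest with EMC7, and no IP overlapped an input of its line. TMEM87A rose by 1.53 ± 0.20, 2.42 ± 0.18 and 1.72 ± 0.15 with EMC6, EMC7 and EMC10 (adjusted p = 6.78e-08, 1.94e-13 and 3.64e-12).

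TMEM87B was counted at low depth, with 34 and 104 counts in EMC6 IPs and 56 and 139 counts in EMC6 inputs. It had 63.6 and 114 CPM in EMC6 IPs, against 20.2 and 47.6 CPM in EMC6 inputs. The EMC7 line gave 222 and 137 CPM in IPs, against 37.5 and 34.4 CPM in inputs. The EMC10 line gave 133, 134 and 123 CPM in IPs, against 31.3, 51.2 and 35.9 CPM in inputs. The IPs lay above the inputs in every line. TMEM87B rose by 1.44 ± 0.36 (adjusted p = 0.00573), 2.33 ± 0.32 (adjusted p = 6.42e-06) and 1.71 ± 0.26 (adjusted p = 3.04e-05), and the EMC6 value lost its call with library size alone (0.72, adjusted p = 0.0703) and without IP replicate 2 of that line (0.89, adjusted p = 0.314).

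GPR107, a Golgi protein needed for killing of cells by toxins that travel through the Golgi, had 178 and 254 CPM in EMC6 IPs, against 93.7 and 136 CPM in EMC6 inputs. Its EMC7 values were 705 and 698 CPM in IPs, against 190.3 and 197 CPM in inputs. Its EMC10 values were 425, 375 and 391 CPM in IPs, against 170.2, 185 and 189.9 CPM in inputs. The gap was again widest with EMC7. GPR107 rose by 0.93 ± 0.20, 1.86 ± 0.18 and 1.13 ± 0.15 with EMC6, EMC7 and EMC10 (adjusted p = 0.000309, 9.91e-11 and 8.28e-08), and the EMC6 value lost its call with library size alone (0.22, adjusted p = 0.296), with that line alone (0.92, adjusted p = 0.0643) and without IP replicate 2 (0.62, adjusted p = 0.0930).

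GPR108, the paralog of GPR107 and a host factor for entry of adeno-associated virus, had 16 and 71 counts in EMC6 IPs and 63 and 65 counts in EMC6 inputs. It had 29.9 and 77.8 CPM in EMC6 IPs, against 22.8 and 22.2 CPM in EMC6 inputs. EMC7 libraries held 282 and 295 CPM in IPs, against 85.2 and 76.2 CPM in inputs. EMC10 libraries held 212, 183 and 244 CPM in IPs, against 73.3, 72.8 and 98.0 CPM in inputs. In the EMC6 line the IPs thus differed from each other more than IP replicate 1 differed from the inputs. GPR108 rose by 1.36 ± 0.29, 1.83 ± 0.21 and 1.39 ± 0.17 (adjusted p = 0.000401, 4.38e-09 and 2.78e-08), and without IP replicate 2 of the EMC6 line its change there was 0.40 (adjusted p = 0.641). Without that library 6 of the 10 genes were called higher with EMC6, where 9.95% of all tested genes were.

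GPR180, first described as the intimal thickness-related receptor, had 37 and 73 counts in EMC6 IPs and 67 and 113 counts in EMC6 inputs. It had 69.2 and 80.0 CPM in EMC6 IPs, against 24.2 and 38.7 CPM in EMC6 inputs. In the EMC7 line it had 78.4 and 75.2 CPM in IPs, against 39.1 and 41.5 CPM in inputs. With the EMC10 bait it had 74.7, 83.3 and 81.2 CPM in IPs, against 35.7, 43.1 and 43.4 CPM in inputs. Its IP level was close to constant across the lines, unlike that of the other 9 genes, which was lowest in the EMC6 IPs. GPR180 rose by 1.26 ± 0.23, 0.93 ± 0.21 and 0.97 ± 0.17 (adjusted p = 5.43e-05, 0.000413 and 1.43e-05), and the EMC7 value was not called with scaling on ER luminal messages (0.42, adjusted p = 0.101).

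**Figure D2:**
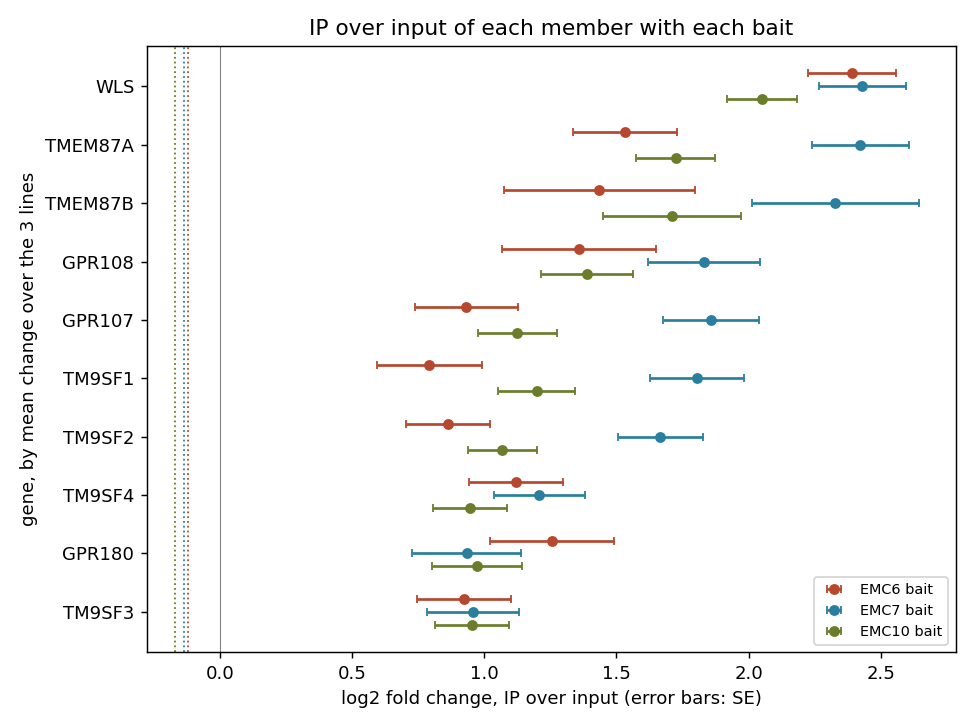
Log2 fold change of IP over input (x axis, error bars SE) for each gene with each bait, ordered by the mean over the 3 lines, with dotted lines at the median of all tested genes. WLS lies at 2.05 to 2.43, TM9SF3 at 0.92 to 0.96, and for TMEM87A, TMEM87B, GPR107, TM9SF1 and TM9SF2 the EMC7 point lies right of the other baits' points with no overlap of error bars.

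Ordered by the mean change of the 3 lines, the genes ran WLS (2.29), TMEM87A (1.89), TMEM87B (1.83), GPR108 (1.53), GPR107 (1.31), TM9SF1 (1.27), TM9SF2 (1.20), TM9SF4 (1.09), GPR180 (1.06) and TM9SF3 (0.95). Taken per pair of IP and input of the same number, WLS was the highest of the 10 in 6 of 7 pairs and TMEM87B in the other. WLS exceeded TMEM87A, its neighbour, by 0.40 ± 0.38 (SD, 7 pairs), in 6 of 7 pairs. TMEM87A and TMEM87B differed by 0.05 ± 0.22, and TMEM87B exceeded GPR108 by 0.38 ± 0.59, both within the spread of the pairs. From GPR108 down to TM9SF3 each neighbour differed from the next by 0.02 to 0.16, less than the SD of that difference over pairs (0.13 to 0.44). At the top the distances were wider: WLS was above TM9SF4 by 1.19 ± 0.13, above GPR180 by 1.21 ± 0.25 and above TM9SF3 by 1.31 ± 0.21, and TMEM87A above GPR107 by 0.59 ± 0.10, each in 7 of 7 pairs. Lower down, genes several places apart were also within the spread, with GPR108 above TM9SF3 by 0.48 ± 0.59 and TM9SF1 above TM9SF3 by 0.30 ± 0.44. The GOST-like genes covered the wider range, 1.06 to 2.29, against 0.95 to 1.27 for the TM9SF genes.

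The next comparison asked whether the change of a gene differed between baits. The labels give IP and input of a line the same batch number, and by their protocol the beads were bound to the supernatant that served as input, so same-numbered libraries were taken as pairs and the fit was also run with the pair as a block. Their deviations from the group means correlated weakly, at 0.0218 to 0.211, and the block calls rest on this pairing. Without the block 0 of 10 genes were called for any difference between baits in edgeR, where 0.518% of all genes were called for EMC6 against EMC7, 0.0740% for EMC6 against EMC10 and 0.159% for EMC7 against EMC10. At an unadjusted p under 0.05 it was 4, 0 and 4 of the 10 genes, and the share of all genes at that level was not counted. DESeq2 called 3, 0 and 0 of the 10. Over all genes DESeq2 called 64 higher and 68 lower for EMC6 against EMC7. With the block 5 of 10 genes were called for EMC6 against EMC7 (6.31% of all genes), 1 for EMC6 against EMC10 (2.23%) and 6 for EMC7 against EMC10 (4.38%). The estimates hardly moved between the fits, whereas their intervals were narrower with the block. Pairs that correlate so weakly give little ground for narrower intervals. The blocked intervals and p-values may therefore be too small, and whether they are was not tested.

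TM9SF1, TM9SF2, GPR107, TMEM87A and TMEM87B made up the 5 genes whose change was smaller with EMC6 than with EMC7. The differences of log2 change, with 95% intervals from the blocked fit, were -1.03 (-1.36 to -0.69) for TM9SF1, -0.80 (-1.01 to -0.59) for TM9SF2, -0.95 (-1.24 to -0.65) for GPR107, -0.90 (-1.20 to -0.60) for TMEM87A and -0.95 (-1.42 to -0.49) for TMEM87B. Blocked adjusted p-values in edgeR ran from 1.69e-11 for TM9SF2 to 0.00154 for TMEM87B, and without the block from 0.0667 for TM9SF1 to 0.636 for TMEM87B. The same genes, with WLS, had a larger change with EMC7 than with EMC10, by 0.61 for TM9SF1, 0.60 for TM9SF2, 0.74 for GPR107, 0.71 for TMEM87A, 0.62 for TMEM87B and 0.38 for WLS in the blocked fit. These comparisons share the EMC7 libraries, so their calls are not independent. WLS was also higher with EMC6 than with EMC10, by 0.34 (0.15 to 0.53, blocked adjusted p = 0.0243).

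Per pair, TM9SF1 stood at 1.71 and 1.91 in the EMC7 pairs, against 0.73 to 1.44 in the other 5 pairs. TM9SF2 stood at 1.58 and 1.75, against 0.78 to 1.17. GPR107 stood at 1.83 and 1.89, against 0.91 to 1.32, and TMEM87A at 2.41 and 2.44, against 1.44 to 2.04. For these 4 genes the EMC7 pairs did not overlap the others, whereas for the other 6 genes, TMEM87B and WLS among them, they did. The share of all tested genes without such overlap was not counted. The pair values therefore only describe these genes and are no test of a difference between baits. No difference was called for TM9SF3, TM9SF4, GPR108 or GPR180 in either fit. The blocked intervals for EMC6 against EMC7 were -0.24 to 0.19 for TM9SF3, -0.33 to 0.15 for TM9SF4, -0.97 to -0.0063 for GPR108 and -0.23 to 0.79 for GPR180, so a sizeable difference fits within those of GPR108 and GPR180.

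**Figure D3:**
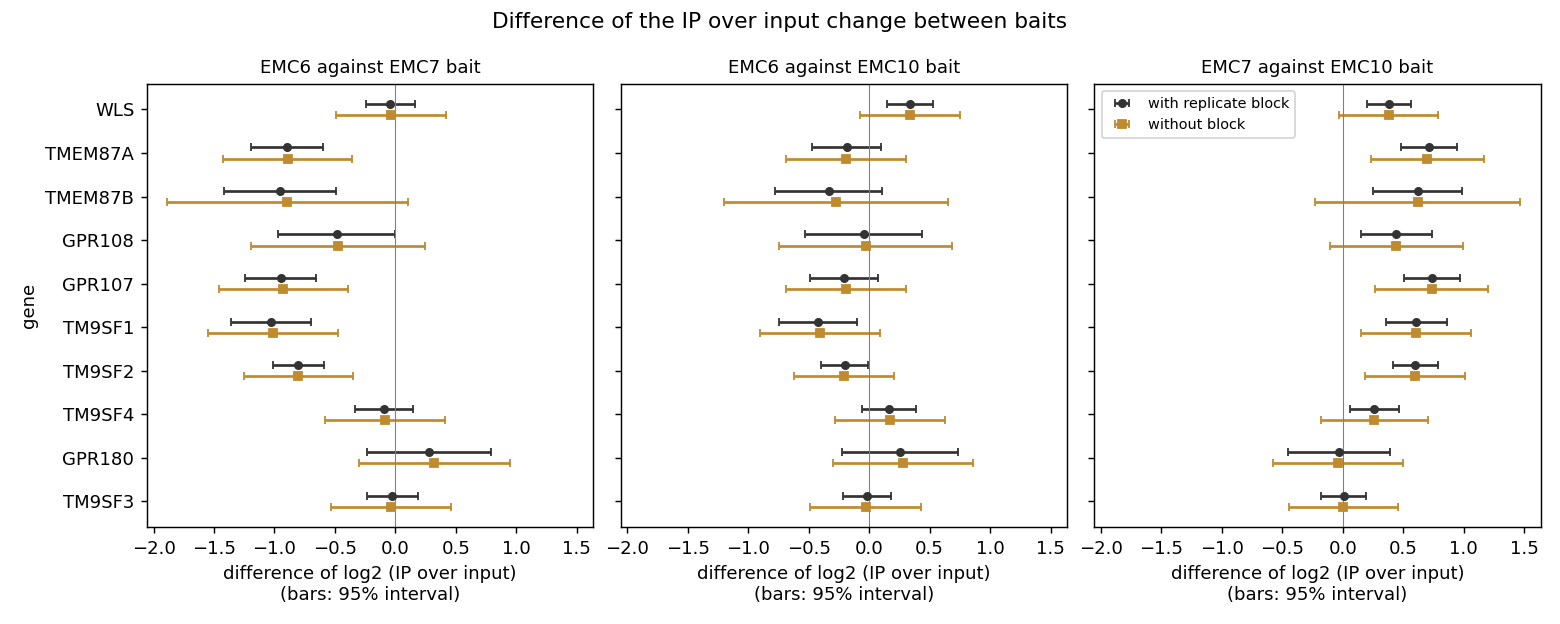
Difference of the log2 IP over input change between baits (x axis, bars 95% intervals) for each gene, from the fit with IP and input paired in a block (circles) and the fit without the block (squares). For EMC6 against EMC7 the circles of TM9SF1, TM9SF2, GPR107, TMEM87A and TMEM87B lie between -1.03 and -0.80, while those of TM9SF3, TM9SF4 and WLS lie near 0.

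Other lists were set beside the 10 genes by the same fits. They were chosen with earlier results of these data known, so their counts are descriptions. Over the mean of the 3 lines 23.7% of all tested genes rose. TMEM145 and TMEM181, relatives with the same GOST architecture, were up by 2.27 ± 0.16 and 1.59 ± 0.11 (mean of the 3 lines) (adjusted p = 4.99e-15 and 7.26e-15). The list closest in build, receptors with a signal peptide and 7 membrane segments (Frizzled, adhesion and class B receptors and others), had 26 of 26 tested genes risen with a median of 1.43, next to 1.29 for the 10 genes. Its largest changes were those of FZD9 (2.86 ± 0.17), FZD5 (2.45 ± 0.11) and ADGRB1 (2.43 ± 0.20) and its smallest those of ADGRL3 (0.75 ± 0.12) and CELSR3 (0.68 ± 0.21). Of 51 class A receptors without a signal peptide only 21 passed the filter on low counts, 2 of them with fewer than 10 counts in every input, so that the filter partly fixes their direction and no count of them is given. Among them were the adenosine receptor ADORA2B at 2.28 ± 0.14 and the sphingosine 1-phosphate receptor S1PR1 at 1.59 ± 0.16. Golgi multi-pass proteins without a signal peptide, such as nucleotide sugar transporters, had 40 of 40 risen with a median of 1.75, from YIPF5 at 0.64 ± 0.11 to TMEM115 at 4.24 ± 0.10.

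Lists with a signal peptide and at most a single membrane segment had lower medians. The p24 proteins carry a GOLD domain in the lumen and bind cargo between ER and Golgi. Of the 8 tested 3 rose and 1 fell, with a median of 0.14, where 23.7% of all tested genes rose and 26.9% fell. TMED2 was their largest at 0.61 ± 0.09 (adjusted p = 1.03e-06), and TMED5 fell by 0.25 on the log2 scale (adjusted p = 0.0477). Type I single-pass proteins of the Golgi and endosomes had 18 risen and 1 fallen of 28 with a median of 0.50, led by the protease FURIN at 1.21 ± 0.11, while TGOLN2 fell by 0.31 (adjusted p = 0.0174). ER luminal proteins had 31 of 58 risen with a median of 0.33. All of these are over the mean of the 3 lines, for which the median of all tested genes was -0.19.

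**Figure D4:**
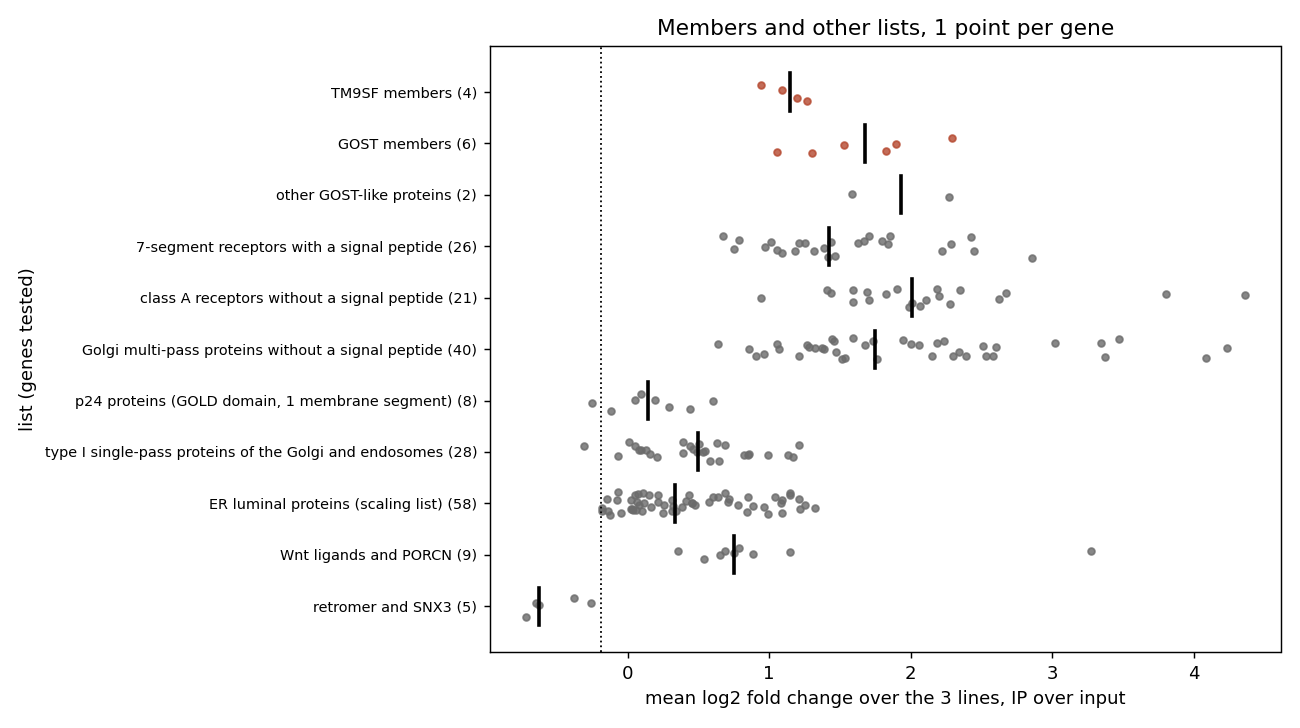
Mean log2 fold change of IP over input over the 3 lines (x axis), 1 point per tested gene, for the TM9SF and GOST-like genes (red) and other lists (grey), with a bar at each list's median and a dotted line at the median of all tested genes. The TM9SF median is 1.15 and the GOST-like median 1.68, against 1.43 for receptors with a signal peptide and 0.14 for p24 proteins.

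The lists were also counted between baits. In the blocked fit, EMC7 against EMC10 gave a higher change with EMC7 for 6 of the 10 genes and for 348 of all 9458 tested genes. This contrast gave 13 of 26 for receptors with a signal peptide, 20 of 58 for ER luminal and 8 of 28 for type I single-pass messages. It gave 0 of 8 for p24 proteins and 0 of 2 for TMEM145 and TMEM181, lists too small to tell 0 from the share of all genes. Golgi multi-pass proteins without a signal peptide had 0 higher and 4 lower of 40, where 66 of all genes were lower. Class A receptors are not counted here, for the reason given above. For EMC6 against EMC7 the same fit gave a smaller change with EMC6 for 5 of the 10 genes and for 330 of all 9458 tested genes. It did so for 9 of 26 receptors with a signal peptide, 19 of 58 luminal and 7 of 28 type I messages. The p24 proteins had 0 of 8, and TMEM145 and TMEM181 0 of 2. Of 40 Golgi multi-pass messages 1 was smaller and 9 were larger with EMC6, where 267 of all genes were larger. Whether these lists differ from one another was not tested.

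Genes that work with the 10 were looked at by role. PORCN, the ER acyltransferase that puts the lipid on Wnt ligands before WLS binds them, rose by 3.27 ± 0.16 over the mean (adjusted p = 4.52e-17). Of the 9 tested genes of the list of PORCN and Wnt ligands 7 rose and 0 fell, against 23.7% of all tested genes risen. Among them were WNT10B at 1.14 ± 0.19 and WNT11 at 0.78 ± 0.13. Retromer, a cytosolic coat that with SNX3 returns WLS from endosomes, had 0 risen and 3 fallen of 5, against 26.9% of all tested genes fallen, with VPS35 at -0.72 ± 0.11, VPS29 at -0.65 ± 0.17 and VPS26A at -0.63 ± 0.15. For TM9SF2, the list of globotriaosylceramide synthesis held 18 genes, of which A4GALT, SPTLC3 and SPTSSB did not pass the filter on low counts. Of the 15 tested 14 rose, against 23.7% of all tested genes, with a median 1.99 above that of all genes. The list was led by the sugar transporter SLC35A2 at 2.58 ± 0.10 and ARV1 at 2.32 ± 0.10. The galactosyltransferases B4GALT6 and B4GALT5, single-pass enzymes, stood at 0.67 ± 0.19 and 0.46 ± 0.12.

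The genes nearest to the median profile of the 10 over the 7 pairs, by Euclidean distance of log2 ratios among 6324 genes with at least 10 CPM, were ADGRL1 (0.345), ADPGK (0.351), HS6ST2 (0.355), DNAJC16 (0.365) and MOGS (0.380). Among the 10 genes themselves GPR107 lay closest to that profile, at 0.325, and WLS farthest, at 2.55.

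The inputs of the EMC6 line, the only one made in a knockout, were set against the mean of the other inputs. Under TMM 8 of 10 genes were lower in EMC6 inputs, against 21.8% of all tested genes. GPR108 was lowest, with 22.8 and 22.2 CPM in EMC6 inputs, against 76.2 to 85.2 CPM in EMC7 inputs and 72.8 to 98.0 CPM in EMC10 inputs, a log2 change of -1.85 ± 0.21 (adjusted p = 2.33e-08). WLS stood at -1.41 ± 0.14 (adjusted p = 1.86e-09), with 542 and 655 CPM in EMC6 inputs, against 1591 and 1794 CPM in EMC7 inputs and 1324 to 1690 CPM in EMC10 inputs. TM9SF4, TM9SF3, TMEM87A, TM9SF1, GPR107 and TM9SF2 stood at -0.97, -0.88, -0.86, -0.73, -0.71 and -0.65 (adjusted p = 3.27e-06 to 0.000520). TMEM87B (-0.15 ± 0.28) and GPR180 (-0.36 ± 0.18) were not called (adjusted p = 0.720 and 0.107), and both were called lower without input replicate 2 of the EMC6 line (-0.95 and -0.79, adjusted p = 0.00928 and 0.00379).

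Other secretory messages were lower as well. In the same comparison 55 of 58 ER luminal messages were lower, with a median of -0.99, against -0.80 for the 10 genes and 0.07 for all tested genes. With libraries scaled on those luminal messages, 2 of the 10 genes were lower in EMC6 inputs, against 2.85% of all genes, and 3 were higher, against 72.4%. GPR108 (-0.85, adjusted p = 0.000804) and WLS (-0.42, adjusted p = 0.000161) were the 2 that stayed lower under this scaling, whereas TM9SF2 (0.35), TMEM87B (0.81) and GPR180 (0.62) turned higher. Counts assigned to no gene made up 11.5% and 12.5% of counts in EMC6 inputs, against 4.68% to 5.15% in the other inputs, and their part in the result was not tested. The inputs were microsomes of bulk cells. Fewer cells with a message, less message per cell, fewer ribosomes per message and less ER in the microsomes cannot be told apart. Line and bait also cannot be told apart from the knockout here.

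**Figure D5:**
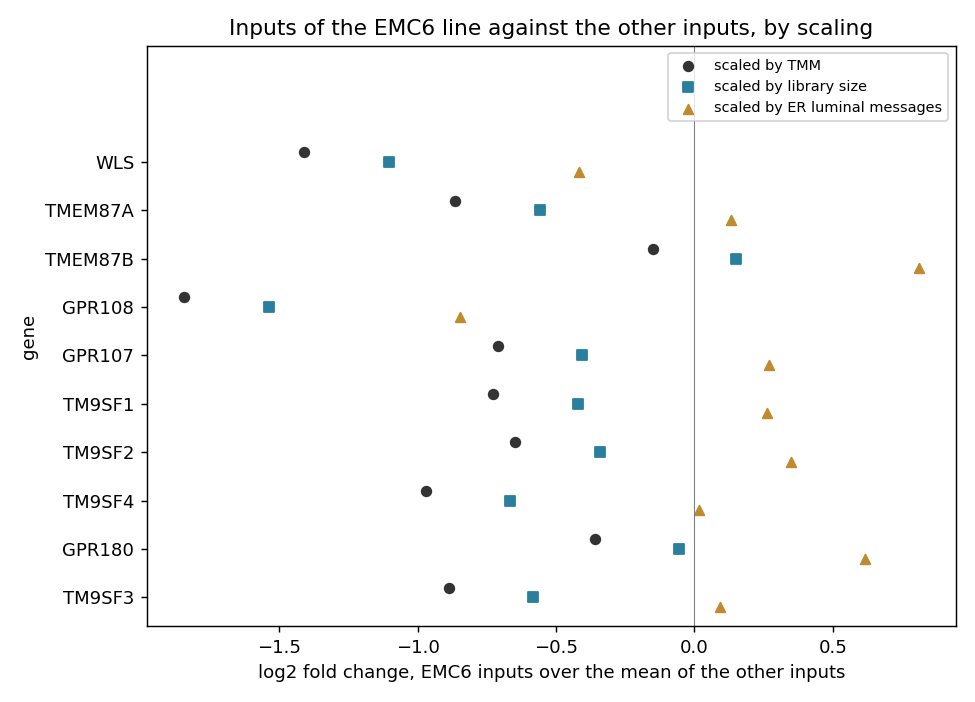
Log2 fold change of EMC6 inputs over the mean of the other inputs (x axis) for each gene, with libraries scaled by TMM (circles), by library size (squares) and by ER luminal messages (triangles). GPR108 and WLS lie below 0 under all 3 scalings, at -0.85 and -0.42 with luminal scaling, while TMEM87B lies at 0.81 with luminal scaling and -0.15 with TMM.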

How the data were processed

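Ribosome footprints were counted in 14 libraries. Per gene symbol, the authors deposited raw counts. The submitters' processing notes name hg38, TopHat2 2.1.0, Bowtie2 2.2.6 and cutadapt 4.1. How strand and duplicates were handled, and which annotation served, is not stated in the sources used here. The 5 rows that name no gene (2.76% to 12.5% of counts) were left out. With edgeR 4.0.16 (R 4.3.3), 1 fit to all libraries took 6 group means, after filterByExpr and TMM scaling, and a robust quasi-likelihood test, adjusted by Benjamini-Hochberg over 9458 genes. The steps were tested on simulated counts. The 10 genes and the lists were chosen with earlier results of these data known. Named from other lists were the 3 largest and 2 smallest mean changes at 10 CPM or more, of which the text gives part. Pair ratios used log2 CPM with a prior count of 0.5.

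Replicate numbers come from the labels, which give IP and input of a line 1 batch number; deviations of same-numbered libraries from their group means correlated at 0.211 (EMC6), 0.0614 (EMC7) and 0.0218 to 0.0834 (EMC10). Replicates never agreed as closely as repeat counts of 1 library would, with chi-square values of 2.09 to 8.62 per degree of freedom. The highest were 8.62 for EMC6 inputs and 4.79 for EMC6 IPs. Alternatives were DESeq2 1.42.0, other scalings and filters, a fold threshold, the block, single lines and leaving out each library. Protein features of the 10 genes were planned, but protein sequences were not used here.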

Additional observations from a re-analysis of the deposited data

Results flagged for a closer look

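Differences between baits that passed the test with IP and input paired in a block and did not pass in the same TMM fit without it, are given as differences of log2 change (edgeR's quasi-likelihood test, Benjamini-Hochberg adjusted). For EMC6 against EMC7 they were -1.03 for TM9SF1, -0.80 for TM9SF2, -0.95 for GPR107, -0.90 for TMEM87A and -0.95 for TMEM87B. For EMC7 against EMC10 they were 0.61 for TM9SF1, 0.60 for TM9SF2, 0.74 for GPR107, 0.71 for TMEM87A, 0.62 for TMEM87B and 0.38 for WLS. For EMC6 against EMC10 the value was 0.34, for WLS. Any 2 of these contrasts share the libraries of 1 line, and the blocked p-values may be too small. Groups of 2 or 3 libraries are too small for a check of single outlying libraries.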

How the results depend on the processing

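Of 880 values of IP over input for the 10 genes under alternatives other than library size alone, 880 stayed above 0. Many of these repeat nearly the same estimate, such as those without a library of another line, so they are not separate checks. Under library size alone 33 of 40 values stayed above 0. Library size alone called 5, 3 and 7 genes higher with EMC6, with EMC10 and with EMC7, against 10 each, and 7 values changed sign: TM9SF3 (-0.062) and GPR180 (-0.087) with EMC7, TM9SF2 (-0.052), TM9SF3 (-0.17), TM9SF4 (-0.17) and GPR180 (-0.14) with EMC10, and TM9SF3 over the mean (-0.0027). That scaling counts the bait message, whose part in these changes was not tested. The bait message took 0.431% to 0.449% of counts in EMC6 IPs. In EMC7 IPs it took 14.39% to 14.96%, and in EMC10 IPs 24.63% to 26.15%. With EMC6, a test against a fold of 1.5 called 6 genes, and the share of all genes under that test is not given here. Leaving out 1 library gave 6 to 10 genes called higher with EMC6 and 10 with EMC7, with EMC10 and over the mean.

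For EMC6 against EMC7, where 0 genes were called, 5 were lower with the replicate block and 3 with DESeq2. It was 1 with luminal scaling and 1 with no filter on low counts. Without 1 library it was 0 to 5, the 5 without input replicate 1 of the EMC6 line. Over all genes 330 were lower with the block, 68 with DESeq2, 66 with no filter and 158 without that input. The count of all genes under luminal scaling is not given here. For EMC6 against EMC10 1 gene was higher with library size alone and 1 with the replicate block, where 493 and 178 of all genes were. For EMC7 against EMC10 2 were higher with library size alone and 6 with the replicate block, where 95 and 348 of all genes were. The replicate block changed no call of IP over input. The mean of the EMC7 and EMC10 lines alone, an alternative chosen after seeing the data, left 10 of 10 genes higher in IP. The share of all genes under that alternative is not given here.

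For EMC6 inputs, where 8 genes were lower, luminal scaling called 5, of which 3 were higher and 2 lower. The fold test called 4 lower, where it called 951 of all genes lower. Leaving out 1 library gave 8 to 10. Luminal scaling turned the sign of TM9SF1 (0.26), TM9SF2 (0.35), TM9SF3 (0.093), TM9SF4 (0.017), GPR107 (0.27), TMEM87A (0.13), TMEM87B (0.81) and GPR180 (0.62). The cause of these changes was not tested. Over all genes, calls of IP above input moved between 990 and 1862 with EMC6, 1001 and 2115 with EMC7 and 760 and 2097 with EMC10 over the settings that kept every library, and calls of EMC6 inputs below the others between 270 and 2142. Depth limits GPR108, TMEM87B and GPR180 in the EMC6 line. The alternative settings for predicted membrane segments were not run.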
